A study of Mus musculus with 8 samples.

Results

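Accessible chromatin at the genes of 10 Sox transcription factors was described in a mouse breast cancer cell line and 3 drug-resistant lines labelled with the same origin, PB3. The members are Sox2, Sox4, Sox5, Sox6, Sox8, Sox9, Sox10, Sox11, Sox13 and Sox17. A consensus region, meaning an interval of open chromatin counted in every library, was assigned to a member when that member was the nearest protein-coding gene and the region lay inside the gene body or at most 50 kb away. This placed 66 of 57417 consensus regions at Sox genes: 30 at Sox5, 10 at Sox6, 7 at Sox9, 6 at Sox4, 5 at Sox13, 3 at Sox10, 3 at Sox11 and 2 at Sox2. Sox8 and Sox17 had 0 regions, so 8 of the 10 members could be measured. Choosing the regions used position only, and all 66 passed the filter on low counts.

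The study measured open chromatin by ATAC-seq, in which the Tn5 transposase cuts accessible DNA, in 2 libraries of each of 4 lines. PB3-Parental is the untreated PB3 line, labelled as negative for the estrogen, progesterone and Her2 receptors. The resistant lines are PB3-ERI-R (eribulin, spelled Erubilin in the treatment label), PB3-PAC-R (paclitaxel) and PB3-VIN-R (vinorelbine), all drugs that bind tubulin. The labels describe selection of resistant clones with 300, 500 and 800 nM of each drug, but give neither the number of clones behind a line nor the dose at harvest. No label says that the 2 libraries of a line came from separate cultures, so p-values measure the spread between these libraries, which may be technical, and each resistant line is a single line. In such bulk data, a change in the share of cells with an open region and a change in how open it is per cell cannot be told apart.

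Sox proteins bend DNA at short sites with a core such as ACAAT and usually act together with partner factors. They fall into subgroups: SoxB1 (Sox2) maintains stem and neural progenitor states, SoxC (Sox4, Sox11) acts in progenitors and differentiating neurons, SoxD (Sox5, Sox6, Sox13) lacks a transactivation domain and modifies the action of other Sox factors, SoxE (Sox8, Sox9, Sox10) specifies cartilage, neural crest and glia, and SoxF (Sox17) acts in endoderm and vessels. In the mammary gland, Sox9 and Sox10 are known for roles in luminal progenitor and stem-like cells, and Sox4 is known as a factor in breast cancer progression.

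Libraries held 10521964 to 24052237 counts in all regions. The PB3-ERI-R libraries stood apart from the rest: across regions, log2 CPM (library-size-scaled counts) correlated at 0.122 to 0.219 between them and the other lines, against 0.966 to 0.977 between the libraries of a line and 0.946 to 0.98 among the other lines. At the 4 regions of Cdkn2a and Cdkn2b, the 6 libraries of the other lines had 0 counts, whereas the PB3-ERI-R libraries had 1289 and 1074. With 1 line for each drug, line and drug cannot be told apart. No label says that PB3-ERI-R was grown from these PB3-Parental cells, and that origin was not tested. In every comparison with PB3-ERI-R, differences that came with drug selection and differences between lines of separate origin therefore cannot be told apart. Summed CPM over 8 epithelial marker loci was 405 to 541 in PB3-Parental and 1218 to 1360 in PB3-ERI-R; 6 of the 8 rose, Krt8 and Krt18 did not pass the test, and none was at 0. The ranges over the marker loci measured were 225 to 241 in PB3-Parental and 182 to 186 in PB3-ERI-R for fibroblasts (5 of 6 measured, 0 rose and 2 fell), 161 to 167 and 90.9 to 93.5 for endothelium (5 of 6, 1 rose and 3 fell), 135 to 160 and 105 to 110 for macrophages and leukocytes (4 of 6, 1 rose and 2 fell), 276 to 295 and 201 to 204 for Schwann cells and glia (3 of 6, 0 rose and 3 fell), and 167 to 174 and 270 to 283 for neurons (6 of 6, 2 rose and 3 fell). The neuronal sum was higher through Rbfox3, at 8.88 and 9.70 CPM in PB3-Parental and 174 and 163 in PB3-ERI-R, and Dcx, whereas Snap25 fell from 119 and 113 to 45.4 and 42.7, and Tubb3 and Stmn2 fell too. The part of these cell type markers in the Sox results was not tested.

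Promoters with a region over them are shown first, because the start of a gene and its distal regions often changed differently. Each sequence holds the 250 bases upstream of a RefSeq start (GRCm38.p6), 5′ to 3′ on the gene's strand, with matches to 4 motifs on either strand in capitals. The motifs are the Sox core site ACAAT, the related Sox and Tcf site that reads ACAAAG, the AP-1 site, whose letters are TGACTCA, and an E-box, with the letters CACCTG. No motif contains another, but both Sox motifs begin with the same bases. Windows were in the RefSeq table for 7 of the 10 members, 5 of them with a start under a region.
Sox11, chr12:27342719-27342968, minus strand: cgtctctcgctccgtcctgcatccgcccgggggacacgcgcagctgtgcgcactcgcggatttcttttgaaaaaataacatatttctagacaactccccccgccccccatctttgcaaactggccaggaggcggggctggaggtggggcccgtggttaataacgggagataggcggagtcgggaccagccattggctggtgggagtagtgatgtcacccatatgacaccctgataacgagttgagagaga
Sox6 internal start, chr7:115824711-115824960, minus strand: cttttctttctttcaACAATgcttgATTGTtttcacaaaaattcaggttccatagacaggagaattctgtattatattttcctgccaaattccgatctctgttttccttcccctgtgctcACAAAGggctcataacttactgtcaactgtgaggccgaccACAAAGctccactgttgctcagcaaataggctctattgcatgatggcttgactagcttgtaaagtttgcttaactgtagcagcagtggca
Sox13, chr1:133424213-133424462, minus strand: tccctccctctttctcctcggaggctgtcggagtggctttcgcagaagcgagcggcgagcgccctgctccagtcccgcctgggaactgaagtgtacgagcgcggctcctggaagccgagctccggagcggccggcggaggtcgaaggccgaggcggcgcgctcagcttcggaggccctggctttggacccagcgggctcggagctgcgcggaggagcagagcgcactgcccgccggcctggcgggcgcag
Sox2, chr3:34649745-34649994, plus strand: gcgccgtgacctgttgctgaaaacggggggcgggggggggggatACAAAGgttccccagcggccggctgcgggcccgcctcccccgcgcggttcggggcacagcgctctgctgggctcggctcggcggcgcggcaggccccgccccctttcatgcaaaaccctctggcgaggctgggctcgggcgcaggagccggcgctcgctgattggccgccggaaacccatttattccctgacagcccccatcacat
Sox4, chr13:28953700-28953949, minus strand: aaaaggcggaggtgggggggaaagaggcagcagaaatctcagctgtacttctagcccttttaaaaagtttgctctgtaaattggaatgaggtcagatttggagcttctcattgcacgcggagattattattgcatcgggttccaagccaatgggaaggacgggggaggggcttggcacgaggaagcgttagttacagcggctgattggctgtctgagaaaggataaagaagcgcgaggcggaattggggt

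The internal Sox6 start held 2 matches to each of the Sox motifs but no AP-1 site or E-box. Another Sox6 start, with no region over it, held the same numbers. The Sox2 promoter held 1 match to the longer Sox site, and those of Sox4, Sox11 and Sox13 held none of the 4 motifs. Over 32851 such upstream windows of all genes, 27.7% held the shorter Sox site, 16.5% the longer one, 17.2% the E-box and 4.46% the AP-1 site. The GC content was 72.4% at Sox13, 72% at Sox2, 58% at Sox11, 50.8% at Sox4 and 41.6% at the internal Sox6 start, against a median of 52.4%. The 3 starts whose regions gained accessibility in PB3-ERI-R (Sox11, Sox6 internal and Sox13), described next, therefore ranged from GC-poor to GC-rich.

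Accessibility of a gene locus was the sum of counts over its regions, tested with edgeR's quasi-likelihood test on all 14966 gene loci with Benjamini-Hochberg adjustment and called at an adjusted p under 0.05. Levels are TMM-scaled CPM with the SD over n = 2 libraries; a ± after a log2 fold change is its standard error. Sums over loci with different numbers of regions are compared between lines, not between genes. In PB3-ERI-R against PB3-Parental, 7 of the 8 Sox loci were called, 6 higher and 1 lower. Among all loci 58.4% were called, 28% higher and 30.4% lower, so a call as such is common in this comparison. The split depends on the scaling: with the factors of the region fit, added after the data were seen, the median of all loci stood at 0.27 and 66.7% of the called loci were higher, against 47.9%. The Sox counts stayed at 6 higher and 1 lower under those factors. Sox6, Sox9, Sox10, Sox11 and Sox13 each rose by more than 2 on the log2 scale, Sox4 rose by 0.34, Sox2 fell, and Sox5 was not called.

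**Figure D1:**
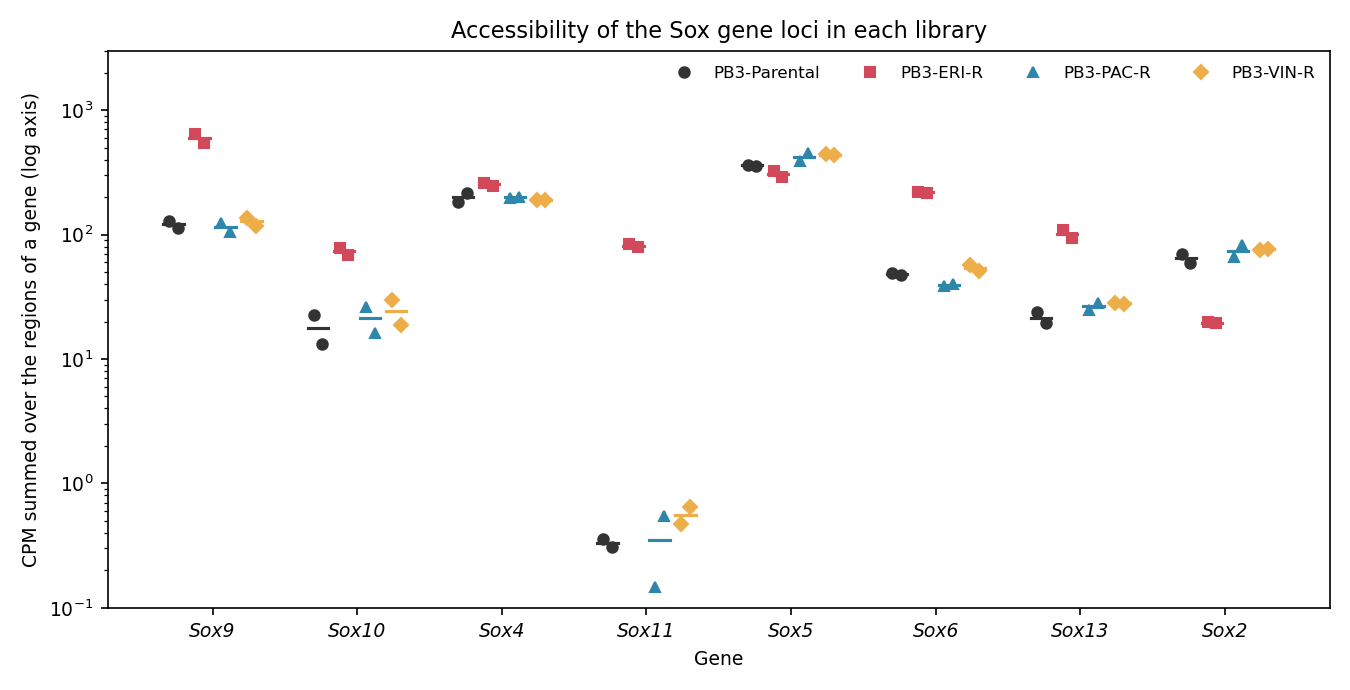
TMM-scaled CPM summed over the regions of each Sox gene (log axis) in every library, with bars at the mean of the 2 libraries of a line. The PB3-ERI-R libraries lie above all others at Sox9, Sox10, Sox4, Sox11, Sox6 and Sox13 and below all others at Sox5 and Sox2 (at Sox5 not with the factors of the region fit), while the other 3 lines lie close together.

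Region by region, 57 of the 66 Sox regions were called in PB3-ERI-R against PB3-Parental, 30 gained and 27 lost. The background was 73% of all 57415 regions tested, with 35.4% gained and 37.6% lost. Large gains were more frequent among Sox regions than among all regions as a description: 12 of 66 rose by at least 6 on the log2 scale, against 3.23% of all regions, and 18 rose by at least 4, against 8.99%. At the other end, 4 of 66 fell by 4 or more, against 6.92%. Of the 66 regions, 24 were peaks in PB3-ERI-R alone, beside 16.9% of all regions, and may be in the set only through that line. All 18 regions that rose by at least 4 are among these 24. The excess of large gains is therefore not separate from the excess of such peaks. By place, 11 of 18 regions outside the genes were gained and 4 lost, 14 of 40 inside the genes were gained and 22 lost, and 5 of 8 within 1 kb of a gene end were gained and 1 lost. Of these 22 losses, 21 were in Sox5 and 1 in Sox6.

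**Figure D2:**
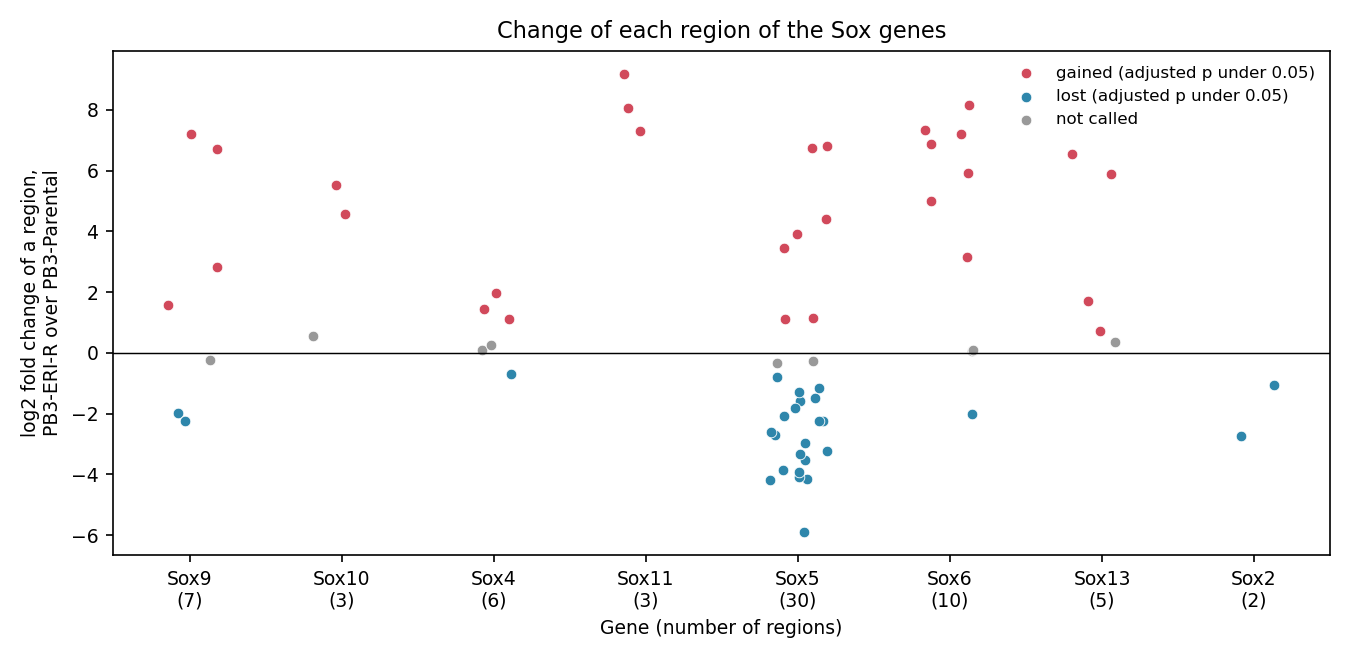
log2 fold change of each of the 66 regions in PB3-ERI-R over PB3-Parental, by gene, with the number of regions in brackets and points spread sideways for display. All 3 regions of Sox11 gained between 7.30 and 9.19, whereas the 30 regions of Sox5 spread from -5.91 to 6.82.

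Among the SoxE genes, Sox9, a regulator of cartilage and of epithelial progenitors, opened most on its lower-coordinate side. Its locus (chr11:112782210-112787757 for the gene) stood at 128 and 113 CPM in the PB3-Parental libraries, 647 and 542 in PB3-ERI-R, 123 and 105 in PB3-PAC-R, and 137 and 118 in PB3-VIN-R. Both PB3-ERI-R libraries were above all 6 others, by 2.30 ± 0.14 on the log2 scale against PB3-Parental (edgeR adjusted p = 3.06e-07). The region at chr11:112766904-112768249, 14.0 kb from the gene, went from 2.65 and 3.13 CPM in PB3-Parental to 343 and 265 in PB3-ERI-R, with 2.65 and 1.78 in PB3-PAC-R, with 1.64 and 1.58 in PB3-VIN-R. Its change was 6.72 ± 0.21 (edgeR adjusted p = 3.12e-10). It supplied 49.5% ± 2.27 (SD, n = 2) of the locus's counts in PB3-ERI-R, against 2.84% ± 0.535 in PB3-Parental, so this distal region carried much of the rise of the sum.

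The region over the gene's lower-coordinate end, chr11:112781983-112782549, was open in all 4 lines and rose less, from 34.1 ± 0.488 to 102 ± 0.176 CPM, by 1.59 ± 0.14. No promoter window was available for Sox9, so no region was marked as its start. A further distal region, chr11:112732110-112732768, 49.4 kb from the gene, rose by 7.19 ± 0.33 from 0.421 and 0.532 CPM to 76.6 and 64.4, and one just past the other gene end, chr11:112787799-112788837, rose by 2.81 ± 0.19. Farther out on the higher-coordinate side, 13.0 to 36.4 kb from the gene, 2 of 3 regions were lost, and chr11:112824159-112824683 fell by 2.23 ± 0.23 (edgeR adjusted p = 7.36e-07), from 24.5 ± 4.3 to 5.20 ± 0.784 CPM. Between 10 and 50 kb from Sox9, regions were thus gained on its low side, and on its high side 2 were lost and 1 was not called.

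The surroundings of Sox9 were higher too: the median log2 ratio of PB3-ERI-R to PB3-Parental over the 136 other regions in its 5 Mb window was 1.32. Relative to that window, the locus rose by 0.99 (edgeR adjusted p = 8.68e-05), and the loss at chr11:112824159-112824683 grew to -3.53. The change of the region over the gene's lower-coordinate end was 0.27, no longer called (edgeR adjusted p = 0.0884). The part of the window in the gain was otherwise not tested.

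**Figure D3:**
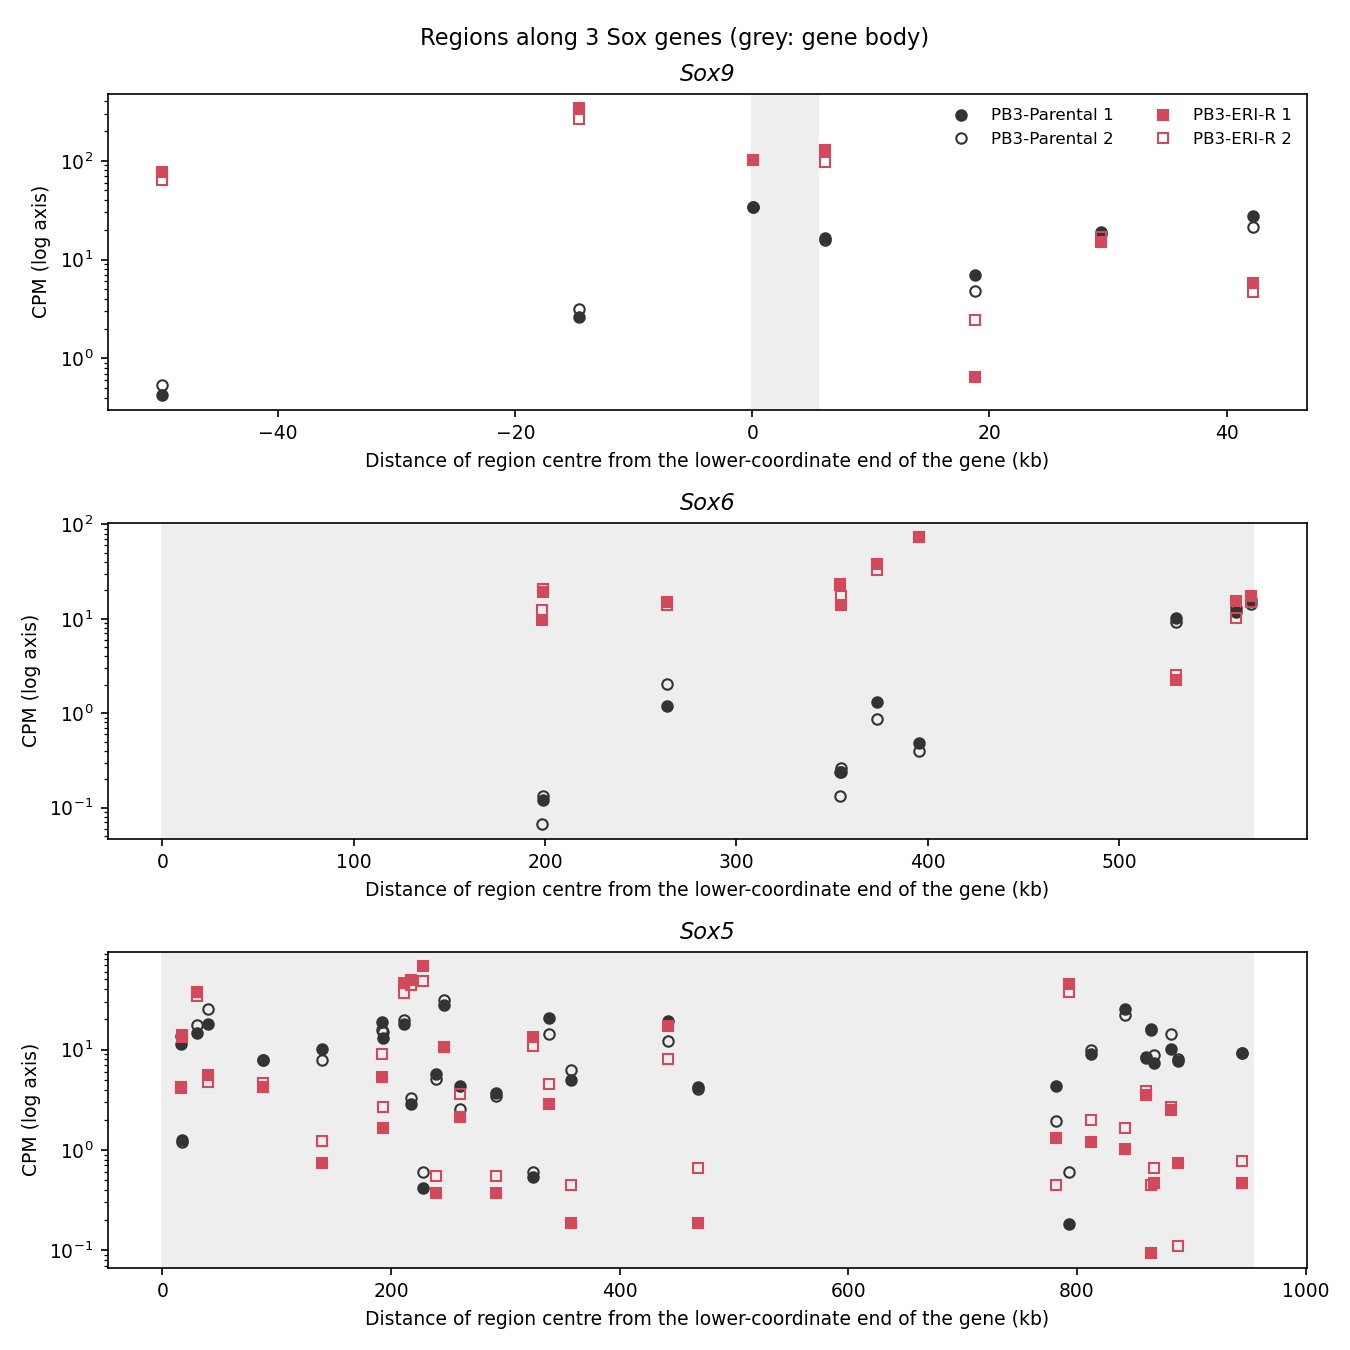
CPM (log axis) of each region in the PB3-Parental and PB3-ERI-R libraries against its distance from the lower-coordinate end of Sox9, Sox6 and Sox5, with the gene body in grey; a value of 0 is not drawn. PB3-ERI-R gains lie at and on the low side of Sox9 and in the middle of Sox6, and gains and losses alternate along Sox5.

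Sox10, the SoxE factor of neural crest, glia and melanocytes, rose from 22.6 and 13.2 CPM in PB3-Parental to 78.6 and 68.1 in PB3-ERI-R, by 2.03 ± 0.30 (edgeR adjusted p = 0.000175). PB3-PAC-R had 26.3 and 16.3 and PB3-VIN-R 29.6 and 18.6, overlapping PB3-Parental. The rise came from a pair of neighbouring regions: chr15:79192466-79193030, 28.0 kb from the gene, went from 0.542 and 0.865 CPM to 35.1 and 29.2 (5.51 ± 0.35), and chr15:79193100-79193542 rose by 4.57 ± 0.35. The region nearest the gene, chr15:79176604-79177259, 12.1 kb away, was open in all lines and was not called at 0.57 ± 0.32 (edgeR adjusted p = 0.118); without PB3-Parental replicate 1 it was called at 1.10. No region lay inside Sox10 itself.

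Sox11, a SoxC factor of neural progenitors, had few counts in 3 lines and was open in PB3-ERI-R. Its 3 regions together had 9 counts in PB3-Parental, 1659 in PB3-ERI-R, 9 in PB3-PAC-R, plus 24 in the more deeply sequenced PB3-VIN-R. As levels, the locus had 0.358 and 0.310 CPM in PB3-Parental, 83.3 and 78.7 in PB3-ERI-R, 0.147 and 0.552 in PB3-PAC-R, with 0.473 and 0.644 in PB3-VIN-R. The rise over PB3-Parental was 7.88 ± 0.33 (edgeR adjusted p = 4.78e-08).

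The start region of Sox11, chr12:27342610-27342865, which covers 147 of the 250 promoter bases printed for it, had 3 counts in PB3-Parental and 323 in PB3-ERI-R, a ratio of 172 after scaling (exact 95% counting interval 58.4 to 839, counting error only). The region 14.4 kb upstream, chr12:27357112-27358108, rose from 0.16 ± 0.056 to 44.6 ± 0.902 CPM, by 8.07 ± 0.44. The region beyond the 3′ end had 1 count in PB3-Parental and 452 in PB3-ERI-R. All 3 were peaks in PB3-ERI-R and in no other line, so they may be in the set only through the line where they were high.

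Sox4, the other SoxC gene, changed little as a sum in the main fit and differently by distance. The locus had 184 and 215 CPM in PB3-Parental, 259 and 246 in PB3-ERI-R, 198 and 202 in PB3-PAC-R, with 189 and 190 in PB3-VIN-R. PB3-ERI-R was the highest line, and the size of its rise over PB3-Parental depended on the scaling. It was 0.62 (edgeR adjusted p = 0.000382) with the scaling factors of the region fit. In the main fit it was 0.34 ± 0.11 (edgeR adjusted p = 0.0173). The call was lost without PB3-Parental replicate 1 (0.23, edgeR adjusted p = 0.16), without PB3-ERI-R replicate 1 (0.31, edgeR adjusted p = 0.0708) and without a scaling factor (0.25, edgeR adjusted p = 0.0535), and with only regions within 10 kb the value was -0.31 (edgeR adjusted p = 0.0536), or -0.32 (edgeR adjusted p = 0.0472) with the scaling of all loci kept.

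At the Sox4 start, chr13:28952633-28953983, levels were 64.4 ± 16.5 CPM in PB3-Parental and 68.5 ± 0.791 in PB3-ERI-R, a change of 0.09 ± 0.19 that was not called. The region with the highest counts, chr13:28917298-28918283, 30.6 kb from the gene, rose from 63.7 ± 5.5 to 138 ± 15.9 CPM, by 1.12 ± 0.14 (edgeR adjusted p = 3.84e-06). A pair near 17 kb away also rose, by 1.98 ± 0.30 (17.2 kb) and 1.43 ± 0.30 (16.8 kb). On the upstream side, chr13:28958271-28959078 fell by 0.68 ± 0.19 (edgeR adjusted p = 0.00509), a loss that was not called relative to the window without Sox regions (-0.32, edgeR adjusted p = 0.167).

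Among the SoxD genes, Sox6, a co-factor of Sox9 in cartilage, gained a block of regions within its gene body. Its locus had 49 and 47.2 CPM in PB3-Parental, 220 and 216 in PB3-ERI-R, 38.5 and 40.4 in PB3-PAC-R, with 56.5 and 50.9 in PB3-VIN-R. The PB3-ERI-R libraries were above all 6 others, by 2.18 ± 0.10 against PB3-Parental (edgeR adjusted p = 7.56e-08). Of its 10 regions, 7 were gained, 1 was lost and 2 were not called.

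The 7 gained regions of Sox6 were peaks in PB3-ERI-R alone. The region at the internal start printed above, chr7:115824652-115825064, rose from 0.241 and 0.133 CPM to 23.5 and 22.8, by 6.88 ± 0.44, and covers all 250 bases of that promoter window. The region with the lowest adjusted p, chr7:115865664-115866644, rose from 0.482 and 0.399 CPM to 73.7 and 73.4, by 7.35 ± 0.38, and held 32.7% ± 0.686 of the PB3-ERI-R counts of the locus. At the 5′ end of the gene the pattern stopped: chr7:116039647-116040497 had 15.1 ± 1.08 CPM in PB3-Parental and 16.1 ± 1.65 in PB3-ERI-R (0.10 ± 0.22, not called), chr7:116031779-116032506 was not called at 0.06 ± 0.25, and chr7:116000310-116000761 fell by 2.02 ± 0.27. A locus fit over regions within 1 kb of a gene end holds the first of these alone and put it at -0.27 (edgeR adjusted p = 0.299), or at -0.18 (edgeR adjusted p = 0.475) with the scaling of all loci kept; the value of 0.10 uses the scaling of the region fit, and none of the 3 was called.

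Sox13, a SoxD factor known from T-cell and neural development, rose from 23.7 and 19.3 CPM in PB3-Parental to 109 and 94.0 in PB3-ERI-R, by 2.23 ± 0.14 (edgeR adjusted p = 4.45e-07). PB3-PAC-R had 24.8 and 28.1 and PB3-VIN-R 28.3 and 27.8. The region over the GC-rich start, chr1:133423622-133424479, rose from 8.74 ± 0.498 to 28.5 ± 2.17 CPM, by 1.70 ± 0.23 (edgeR adjusted p = 8.39e-06). A pair of upstream regions rose far more: chr1:133446285-133446689, 21.8 kb away, from 0.361 and 0.2 CPM to 28.9 and 25.1 (6.54 ± 0.36), and chr1:133448275-133448884, 23.8 kb away, by 5.89 ± 0.36. With regions within 10 kb only, the locus rose by 0.98.

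Sox5, a close relative of Sox6 with a gene body of 953.9 kb, showed both directions at once. Its locus had 364 and 357 CPM in PB3-Parental, 327 and 288 in PB3-ERI-R, 389 and 449 in PB3-PAC-R, with 441 and 432 in PB3-VIN-R. PB3-ERI-R was the lowest line, but its change of -0.23 ± 0.11 against PB3-Parental was not called (edgeR adjusted p = 0.111; called at -0.32 without a scaling factor, edgeR adjusted p = 0.0171, and at -0.23 with the replicate number as a block, edgeR adjusted p = 0.0384). With the scaling factors of the region fit the value was 0.05 (edgeR adjusted p = 0.723), so the sign of the sum was not settled. Behind this sum, 21 of its 30 regions were lost, 7 gained and 2 not called, all inside the gene.

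The Sox5 region with the lowest adjusted p among gains, chr6:144056452-144057271, rose from 0.421 and 0.599 CPM in PB3-Parental to 68.3 and 48.1 in PB3-ERI-R, by 6.82 ± 0.36, and held 18.2% ± 2.67 of the PB3-ERI-R counts of the gene. The corresponding loss, chr6:144693248-144693866, fell from 15.9 and 15.6 CPM to 0.0929 and 0.443, by 5.91 ± 0.40, while PB3-PAC-R had 23.0 and 23.1 and PB3-VIN-R 24.5 and 28.0. The region with the highest counts over all libraries, chr6:144074720-144075259, fell by 1.47 ± 0.20 from 29.5 ± 2.45 to 10.7 ± 0.107 CPM. The Sox5 start in the promoter windows is internal to the gene, and the region nearest to it, chr6:143967897-143968450, 20.8 kb away, fell by 3.22 ± 0.36. The region nearest the 5′ end of the gene body, chr6:144772822-144773373, 8.9 kb from that end, fell by 3.92 ± 0.35.

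The surroundings of Sox5 were lower by their median. The log2 ratio of PB3-ERI-R to PB3-Parental had a median of -1.44 over the 78 other regions in the gene's 5 Mb window. Relative to that window the locus was higher, by 1.22 (edgeR adjusted p = 2.17e-05), and chr6:144074720-144075259 changed by -0.03 and was not called (edgeR adjusted p = 0.904). The direction of the Sox5 sum therefore depends on the scaling, both between genome-wide factors and between the genome and its surroundings. For the remaining measured loci the corresponding window medians in PB3-ERI-R were 0.63 for Sox11, 0.37 for Sox13, 0.20 for Sox2, 0.11 for Sox10, 0.08 for Sox6 and -0.37 for Sox4.

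Sox2, the SoxB1 factor of pluripotent and neural stem cells, was the member that fell. Its locus had 70.4 and 59.3 CPM in PB3-Parental, 19.8 and 19.3 in PB3-ERI-R, 66.1 and 82.7 in PB3-PAC-R, with 75.3 and 77.2 in PB3-VIN-R. Both PB3-ERI-R libraries were below all 6 others, by 1.73 ± 0.14 on the log2 scale against PB3-Parental (edgeR adjusted p = 2.37e-06). The start region, chr3:34649306-34650518, which contains the promoter printed above, fell from 36.4 ± 4.03 to 17.3 ± 0.421 CPM, by 1.07 ± 0.17 (edgeR adjusted p = 4.32e-05). The region 11.4 kb away, chr3:34663820-34664733, fell further, from 18.6 ± 1.81 to 2.77 ± 0.157 CPM, by 2.75 ± 0.30. It was a peak in every line except PB3-ERI-R, whereas the start overlapped a peak in all 4. Where a peak had to cover most of a region, the start was not a peak in PB3-ERI-R.

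In the paclitaxel- and vinorelbine-resistant lines, 0 of 8 Sox loci were called against PB3-Parental, beside a background of 0.107% of loci (PB3-PAC-R) or 0.648% (PB3-VIN-R). DESeq2 also called 0 of 8 in each. At an unadjusted p under 0.05, reached by 5.67% of all loci for PB3-PAC-R but 7.1% for PB3-VIN-R, edgeR counted 1 locus in PB3-PAC-R, Sox6 at -0.29 ± 0.10 (edgeR adjusted p = 0.631), and 2 in PB3-VIN-R, Sox5 at 0.28 ± 0.11 (edgeR adjusted p = 0.603) and Sox13 at 0.38 ± 0.14 (edgeR adjusted p = 0.49). Of the 66 regions, 0 were called in either line, where the background was 0.0853% of regions for PB3-PAC-R but 0.678% for PB3-VIN-R, and 4 and 11 had an unadjusted p under 0.05, beside 5.78% and 9.87% of all regions. DESeq2 called 0 Sox regions in either line. With the replicate number as a block, edgeR called 3 Sox regions in PB3-VIN-R, 2 higher and 1 lower, beside 4.73% of all regions. Without PB3-Parental replicate 1, 1 region was called in PB3-VIN-R.

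The direct comparisons with the other resistant lines use the same PB3-ERI-R libraries. Against PB3-PAC-R, 8 of 8 Sox loci were called in PB3-ERI-R, 6 higher and 2 lower, beside 60.4% of all loci, and against PB3-VIN-R again 8 of 8, 6 higher and 2 lower, beside 58.8%. Sox5 was called here, at -0.45 ± 0.11 and -0.51 ± 0.11, but not with the scaling factors of the region fit, at -0.18 (edgeR adjusted p = 0.209) and -0.24 (edgeR adjusted p = 0.0952). Between PB3-PAC-R and PB3-VIN-R, 0 of 8 were called (background 0.0334%; DESeq2 0), and at an unadjusted p under 0.05 the count was 1: Sox6 at -0.45 ± 0.10 (edgeR adjusted p = 0.356).

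The deposited peak lists, 1 per line, give the same regions as present or absent. Among the 66 Sox regions, 24 (36.4%) overlapped a peak in PB3-ERI-R alone, compared with 16.9% of all consensus regions. In addition, 21 were peaks in every line but PB3-ERI-R, beside 26.9% of all regions, 9 were peaks in all 4 lines, beside 31.4%, and 12 were peaks in another combination. The PB3-ERI-R-only peaks were 7 of 10 regions at Sox6, 5 of 30 at Sox5, 3 of 3 at Sox11, 3 of 7 at Sox9, 2 of 3 at Sox10, 2 of 5 at Sox13 and 2 of 6 at Sox4, and 0 of 2 at Sox2. At Sox5, 15 of 30 regions were peaks in every line but PB3-ERI-R.

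Sox genes often lie in gene-poor intervals with distant enhancers, so 83 further regions whose nearest gene is a member but which lie beyond 50 kb were described; they were added after the data were seen. In PB3-ERI-R against PB3-Parental 41 were gained and 28 lost, 83.1% called beside the background of 73%. All 10 around Sox11, 147.1 to 453.9 kb away, were gained, and together they had 30 counts in PB3-Parental, 5290 in PB3-ERI-R, 37 in PB3-PAC-R, and 53 in the PB3-VIN-R libraries. With so few counts in the other lines, these 10 may be in the set only through PB3-ERI-R, so their shared direction is not separate support. All 7 around Sox6 were gained too, by 0.96 to 7.15, and most of these were peaks in PB3-ERI-R alone. The share of 83.1% includes such regions. Around Sox2, 13 of 24 were lost and 7 gained; chr3:34967326-34967562, 314.9 kb away, had 205 counts in PB3-Parental and 0 in PB3-ERI-R, at least 42.8-fold lower against a floor of 3 counts over the line.

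Around Sox9, 5 of 17 distant regions were gained and 8 lost. The strongest gain, chr11:112711260-112712298, 69.9 kb from the gene on the same side as the gains within 50 kb, rose from 0.421 and 0.333 CPM to 227 and 200, by 9.11 ± 0.28 (edgeR adjusted p = 3.12e-10). That side also held distant losses, such as chr11:112643311-112643681, which fell by 3.23 ± 0.49. Sox4 had 9 gained and 5 lost of 17, Sox13 2 gained and 1 lost of 3, and Sox5 1 gained and 1 lost of 5.

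**Figure D4:**
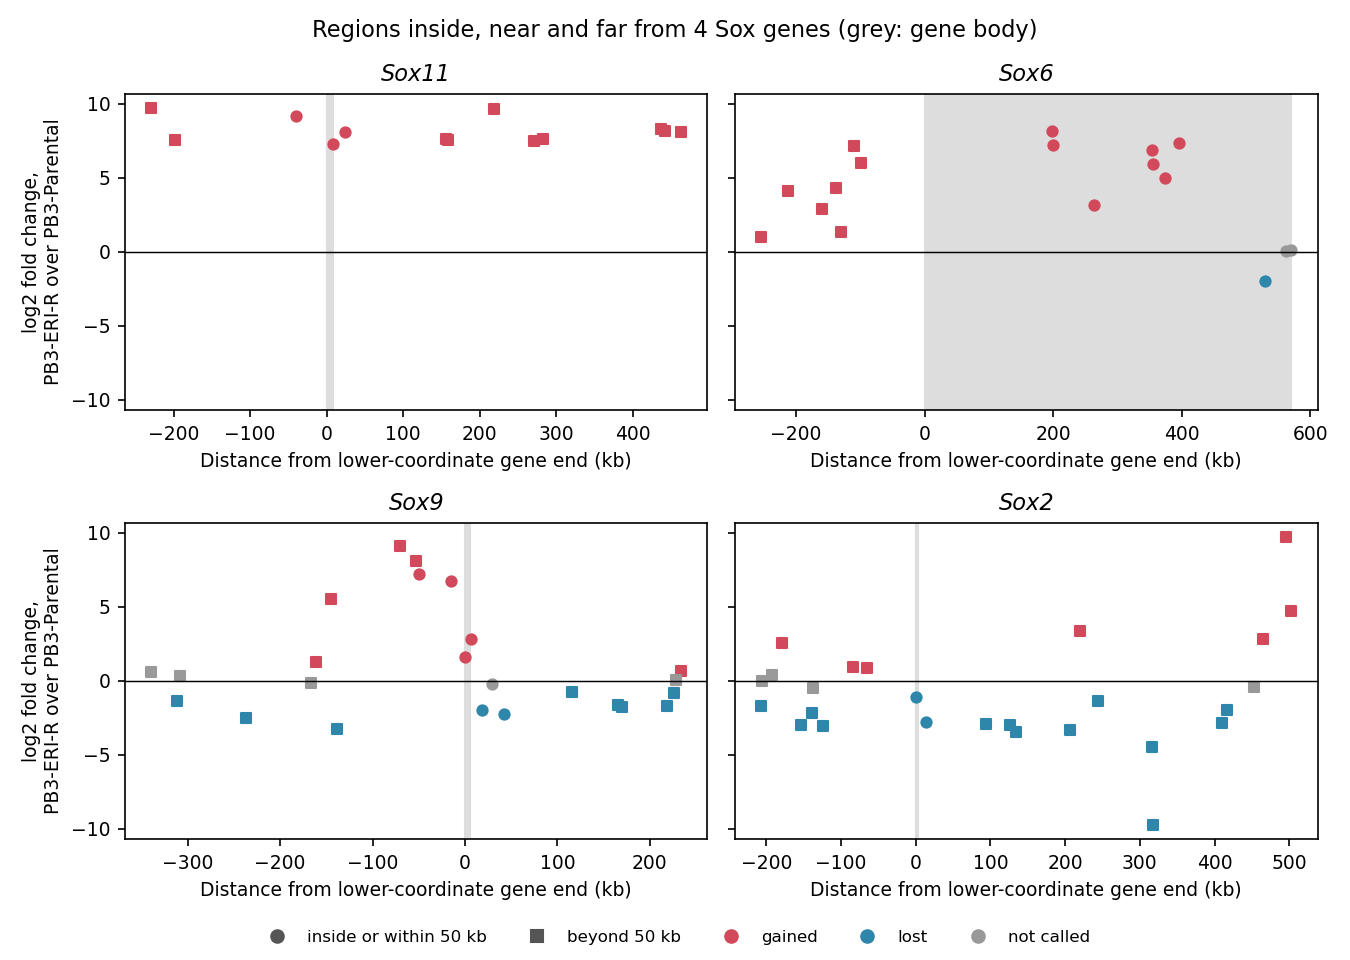
log2 fold change in PB3-ERI-R over PB3-Parental of regions within 50 kb (circles) and beyond (squares) against distance from the lower-coordinate end of Sox11, Sox6, Sox9 and Sox2, with the gene body in grey. All 13 regions around Sox11 are gained, though they may be in the set only through PB3-ERI-R, and most gains at Sox9 lie on the low side of the gene.

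Beyond 50 kb, PB3-VIN-R also had calls, 5 of 83, beside the background of 0.678%, and PB3-PAC-R had 0. At Sox6, 3 distant regions rose in PB3-VIN-R: by 2.22 ± 0.41 at 211.7 kb, 1.99 ± 0.36 at 160.1 kb and 1.55 ± 0.24 at 130.3 kb (edgeR adjusted p = 0.0249, 0.0241 and 0.0104). The last, chr7:115340070-115340541, had 6.80 and 6.79 CPM in PB3-Parental, 17.2 and 16.5 in PB3-ERI-R, 14.6 and 10.8 in PB3-PAC-R, and 17.8 and 22.0 in PB3-VIN-R, so all resistant libraries were above the parental ones. At Sox4, a neighbouring pair 295.9 and 296.6 kb away fell in PB3-VIN-R by 2.38 ± 0.37 and 1.81 ± 0.36 and rose in PB3-ERI-R by 4.11 ± 0.30 and 3.42 ± 0.32. None of the 5 was called without PB3-Parental replicate 2, without PB3-VIN-R replicate 1 or without PB3-VIN-R replicate 2, and 2 were without either PB3-ERI-R replicate.

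Genes linked to Sox function were read from fixed lists as a description. In PB3-ERI-R against PB3-Parental the median log2 fold change over all loci was -0.00, and the counts below stand beside 28% of all loci higher and 30.4% lower. Of 6 measured loci of cartilage genes driven by SoxE, 4 rose and 0 fell, with a median of 2.47: Col9a1 went from 6.92 ± 0.346 to 113 ± 0.782 CPM (4.03 ± 0.18) and Col11a1 from 8 ± 0.0212 to 60.4 ± 0.347 (2.91 ± 0.22), both collagens of cartilage. Of 6 neural crest and glial targets of SoxE, 3 rose and 3 fell (median -0.02): Ednrb, the endothelin receptor of neural crest, rose from 0.412 ± 0.0759 to 37.5 ± 6.33 CPM (6.49 ± 0.46) and Erbb3, a neuregulin receptor, by 1.07 ± 0.13, whereas Mitf, the melanocyte regulator, fell by 0.44 ± 0.10 and Mbp, a myelin gene, by 0.43 ± 0.10. With the scaling factors of the region fit, this list had 3 higher and 1 lower, and Mitf (-0.16, edgeR adjusted p = 0.201) and Mbp (-0.15, edgeR adjusted p = 0.194) were not called.

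Of 7 neural genes with SoxB or SoxC input, 3 rose and 3 fell (median -0.52). Dcx, a microtubule-associated protein of migrating neurons, rose from 0.215 and 0.155 CPM to 40.8 and 38.8 (7.68 ± 0.35), and Notch1, a cell-fate receptor, rose by 0.82 ± 0.14, whereas Nes, a progenitor intermediate filament, fell by 1.60 ± 0.12 and Lefty1, a Nodal antagonist, fell by 2.07 ± 0.24. Of 14 partner and related HMG-box factors, 4 rose and 7 fell (median -0.15; 6 and 4 with the scaling factors of the region fit), with Tcf7l1, a Wnt-pathway HMG-box repressor, up by 1.54 ± 0.10, Ctnnb1, which encodes beta-catenin, up by 0.75 ± 0.09, and the neural factors Pou3f2 and Pax6 at -4.76 ± 0.29 and -4.23 ± 0.38. Pax6 was also the locus of this list called in both other resistant lines, at 15.7 ± 1.89 CPM in PB3-Parental, 1.41 ± 0.0931 in PB3-PAC-R, 4.12 ± 1.6 in PB3-VIN-R and 0.826 ± 0.0959 in PB3-ERI-R. In PB3-VIN-R that call was lost without PB3-Parental replicate 2 and without PB3-VIN-R replicate 2. Of 5 other Sox genes measured, Sox18 (1.20 ± 0.28) and Sox21 (0.57 ± 0.15) rose and Sox30 fell by 5.43 ± 0.45.

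The loci most like each member were found by the root mean square difference of centred log2 CPM over the 8 libraries. Candidates were the 13392 loci with a mean log2 CPM of at least 3. Sox9 was matched most closely by Lhpp (0.05) and Ache (0.06), Sox6 by Kcnb2 (0.11) and Ache (0.13), Sox13 by Il17re (0.10) and Ptpn6 (0.11), Sox10 by Tmem40 (0.17) and Slc6a19 (0.18), and Sox2 by Sfswap (0.10) and Ptpn5 (0.11). Sox4 was nearest to Rabep1 and Upp2 (0.04 each) and Sox5 to Myh3 and Uhrf1bp1l (0.04 each). Sox11 had no close match among these candidates. The nearest, Steap4 (0.93) and Ehf (1.02), were open in PB3-ERI-R at 282 and 328 CPM but kept 4.30 and 6.01 CPM in PB3-Parental. Loci with as few counts as Sox11 fall under the limit, so a closer match among them was not sought. Dcx, for example, rose by 7.68 in PB3-ERI-R against PB3-Parental, beside 7.88 for Sox11.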

How the data were processed

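The authors deposited raw read counts per consensus region for 8 libraries and 1 peak list per line, named as reproducible (IDR) peaks per the labels; the mm10 build and the tools Bowtie2 2.2.6, MACS2 2.1.1, Picard and featureCounts are named in the submitters' processing notes. The deposited peak columns used are the −log10 q-value and the fold enrichment (ratio), both the authors' own. The authors' signal tracks were not used. Regions were assigned to 21887 protein-coding gene bodies of RefSeq GRCm38.p6, and 48280 of 57417 were placed; promoter windows came from RefSeq. Counts per region, and summed per gene, were fitted with edgeR 4.0.16 (filterByExpr, TMM, quasi-likelihood, 1 term per line, 4 residual degrees of freedom) over all features, and DESeq2 1.42.0 served as an alternative. The floor was set at 3 counts. With totals of 10521964 to 24052237 counts, this equals 0.114 CPM (PB3-VIN-R replicate 1) to 0.332 CPM (PB3-ERI-R replicate 2) in a single library. The test was checked on simulated data with few changed features, as many up as down. That setting differs from PB3-ERI-R against PB3-Parental, where 58.4% of loci and 73% of regions were called. The check therefore does not cover the scaling in that comparison. Members and lists were chosen with earlier results of these data known. All members are named; regions named by rule are, per member, that nearest a start, that with the highest mean count, and that with the smallest adjusted p in each direction, and from each list the 2 loci with the smallest adjusted p per direction. Other regions given by position were chosen after their values were seen. The replicate numbers were not taken as pairs, since no label ties them to a shared batch. Same-numbered libraries did deviate together by over 0.1 in 5 of 6 pairs of lines. Loci and regions were scaled separately. Alternatives were other scalings, filters, distance limits, 5 Mb window offsets, a replicate block, only the lines compared and leaving out each library.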

Additional observations from a re-analysis of the deposited data

Results flagged for a closer look

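The change of a Sox locus from PB3-Parental in the eribulin-resistant line differed from its change in the other resistant lines at 8 of 8 loci measured, which is what drew attention to them. The parental libraries are common to both changes, so each difference, given here on the log2 scale with its standard error, equals the direct comparison of the resistant lines. Against PB3-PAC-R, the differences were Sox2 -1.93 ± 0.14 (edgeR adjusted p = 1.09e-06), Sox4 0.33 ± 0.11 (edgeR adjusted p = 0.0179), Sox5 -0.45 ± 0.11 (edgeR adjusted p = 0.00632), Sox6 2.47 ± 0.10 (edgeR adjusted p = 3.82e-08). The remaining differences against PB3-PAC-R were Sox9 2.38 ± 0.14 (edgeR adjusted p = 2.53e-07), Sox10 1.78 ± 0.30 (edgeR adjusted p = 0.000408), Sox11 7.85 ± 0.33 (edgeR adjusted p = 4.3e-08), Sox13 1.94 ± 0.14 (edgeR adjusted p = 9.89e-07). Against PB3-VIN-R, the differences were Sox2 -1.97 ± 0.14 (edgeR adjusted p = 8.58e-07), Sox4 0.41 ± 0.10 (edgeR adjusted p = 0.00586), Sox5 -0.51 ± 0.11 (edgeR adjusted p = 0.00296), Sox6 2.02 ± 0.10 (edgeR adjusted p = 8.63e-08). The remaining differences against PB3-VIN-R were Sox9 2.22 ± 0.14 (edgeR adjusted p = 3.17e-07), Sox10 1.61 ± 0.29 (edgeR adjusted p = 0.000694), Sox11 7.16 ± 0.29 (edgeR adjusted p = 3.54e-08), Sox13 1.85 ± 0.14 (edgeR adjusted p = 1.08e-06). With the scaling factors of the region fit, the Sox5 differences were -0.18 and -0.24 and were not called. Sox11 differed by most among these loci in both comparisons, and Sox4 by least. The loci share the PB3-ERI-R libraries that stand apart across the genome, where 60.4% and 58.8% of all loci differed in the same comparisons. No library of a line could be tested as an outlier, since each line has 2.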

How the results depend on the processing

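Of the alternatives tried, 177 of 186 counts of called Sox loci or regions stayed within 1.5 times the reported count. With only regions within 1 kb of a gene end, 4 of 6 loci were called for PB3-ERI-R against PB3-Parental, 4 against PB3-PAC-R and 4 against PB3-VIN-R, again 4 each with the scaling of all loci kept; against PB3-Parental, Sox10 was not measured at this limit and Sox4 and Sox6 lost their calls. With the replicate number as a block, 1 locus was called between PB3-PAC-R and PB3-VIN-R, 3 regions in PB3-VIN-R against PB3-Parental, and beyond 50 kb 16 regions in PB3-VIN-R and 5 in PB3-PAC-R; same-numbered libraries deviated together by 0.063 (PB3-ERI-R and PB3-Parental) to 0.416 (PB3-VIN-R and PB3-PAC-R), over 0.1 in 5 of 6 pairs of lines and at 0.329 and 0.37 for PB3-PAC-R and PB3-VIN-R with PB3-Parental. No label ties the numbers to a shared batch and 1 pair of lines was under 0.1, so they were not taken as pairs. Over all loci, the block raised the share called in PB3-ERI-R from 58.4% to 68%. Leaving out 1 library gave 0 to 1 called Sox regions in PB3-VIN-R, and among regions beyond 50 kb, 0 to 1 in PB3-PAC-R and 0 to 7 in PB3-VIN-R. The Sox4 locus turned to -0.31 within 10 kb, -0.20 inside the gene and -0.27 within 1 kb of its ends (-0.32, -0.18 and -0.18 with the scaling of all loci kept, a choice added after the data were seen), and was not called at 0.20 with 5 Mb window offsets (0.71, called, with window medians taken without Sox regions). The Sox6 locus turned to -0.27 within 1 kb of gene ends, or -0.18 with that scaling kept. The Sox5 locus turned to 1.27 with window offsets and 1.22 without Sox regions in the medians, and the Sox5 region chr6:144074720-144075259 to 0.03. The Sox9 locus rose by 1.16 with window offsets and 1.29 inside the gene only; Sox13 by 0.95 inside the gene only. The Sox4 start region was called at 0.48 with offsets taken without Sox regions. Sox10 has no region within 10 kb and Sox5 none within 1 kb of a gene end, so these limits gave no value there. The cause of these changes was not tested. Without a scaling factor, gains were 41.8% of the called loci in PB3-ERI-R, against 47.9%, and 37.1% of the called regions, against 48.5%. The directions of the Sox2, Sox6, Sox9, Sox10, Sox11 and Sox13 loci did not flip under any scaling. Counts limit Sox11 in 3 lines and every region with 3 counts or fewer.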

Other observations

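Sox8, the third SoxE gene, had no assigned region, but a region assigned to its neighbour Lmf1 lay 6.7 kb from Sox8. This region, chr17:25577349-25577759, had 8 and 6 counts in the PB3-Parental libraries, 403 and 253 in PB3-ERI-R, 5 and 8 in PB3-PAC-R, and 13 and 5 in PB3-VIN-R. It rose by 6.19 ± 0.40 in PB3-ERI-R against PB3-Parental (edgeR adjusted p = 7.61e-09). The next region, 8.2 kb from Sox8 and inside Lmf1, was not called, at -0.09 ± 0.21. The region nearest to Sox17 was 174.0 kb away and assigned to Mrpl15, at 4.21 ± 2.98 CPM in PB3-Parental and 17.8 ± 1.49 in PB3-ERI-R (SD over 2 libraries each), a change of 2.08 ± 0.45. Sox8 and Sox17 were chosen here by position alone, and neither value is a measure of those genes.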
